A study of Mus musculus with 12 samples.

Results

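The genes described here are 36 mouse genes of the actin cytoskeleton and of the SRF-MRTF transcription pathway. They were picked by symbol from a table of 25861 genes. All 36 had a row, and all 36 were among the 17025 genes with enough counts to be tested. RNA sequencing was done on organoids, clusters of primary mammary epithelial cells freshly taken from tumours of MMTV-Neu mice. These mice carry the Neu (Erbb2) oncogene under a promoter of mouse mammary tumour virus, which is active in mammary epithelium. The sh2Cldn7 group carried a lentiviral short hairpin RNA against Cldn7 and is called hairpin 2 here. The sh1Cldn7 group carried another hairpin against the same gene and is called hairpin 1. The shControl group carried a non-targeting hairpin and is called the control. The 12 libraries fell into 4 per group, numbered 1 to 4. All groups, the control included, were infected at a multiplicity of 20 and kept for 3 days under 3 µg/ml of puromycin. They were fed medium with 2.5 nM FGF2 and embedded in fibrillar collagen I for 5 days. The control is labelled WT, although its organoids also came from MMTV-Neu tumours. The labels do not give the age or strain of the mice, or whether a library pooled organoids of several mice. The study asked what the loss of claudin 7, a protein of epithelial tight junctions, does to invasion.

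Actin monomers assemble into filaments that crosslinkers, tropomyosins and myosin II turn into contractile bundles, and focal adhesions tie these bundles to the matrix. The same monomers hold the coactivators Mrtfa and Mrtfb in the cytoplasm. When monomers are used up by assembly, the coactivators enter the nucleus and, with the serum response factor Srf, raise the transcription of genes for actin, vinculin, calponins and other cytoskeletal proteins, many of which carry a CArG box, the DNA element that Srf binds. In the mammary gland the contractile genes of this pathway are best known from myoepithelial cells, which lie under the luminal cells, and they are also used by fibroblasts and pericytes.

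Total counts were 68581024 to 76329473 in replicates 3 and 4 and 34988358 to 44645514 in replicates 1 and 2 of every group. Levels are given as CPM, counts scaled to library size. Cldn7 checked the labels: it stood at 25.4 to 34.7 CPM with hairpin 2, 29.0 to 44.2 CPM with hairpin 1 and 101 to 186 CPM in the control. By edgeR it was at 20.3% of the control level with hairpin 2 (adjusted p = 9.79e-07) and at 23.8% with hairpin 1 (adjusted p = 2.63e-06). Libraries with the same replicate number deviated together, so fold changes below compare groups within replicate numbers. Luminal epithelial markers (7 genes) summed to 7449 to 8414 CPM with hairpin 2, 7097 to 9395 CPM with hairpin 1 and 7116 to 9984 CPM in the control. Erbb2, the gene of the oncogene these tumours carry, made up 36.4% to 71.4% of that sum. The other 6 summed to 2421 to 4312 CPM with hairpin 2, 2483 to 4514 CPM with hairpin 1 and 2621 to 4714 CPM in the control, so luminal epithelial transcripts were present in every library. Fibroblast markers (11 genes) were also present, at 2666 to 14676 CPM with hairpin 2, 1001 to 8446 CPM with hairpin 1 and 857 to 6697 CPM in the control.

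Between genes, levels were compared as CPM per kilobase of exon. In the control, Actb, the beta cytoplasmic actin, stood highest of the 36 at 1336, followed by Actg1, the gamma cytoplasmic actin, at 1076, the crosslinker Actn4 at 795, the monomer-binding profilin Pfn1 at 501 and the filament-severing cofilin Cfl1 at 344. The lowest were the LIM-domain genes Tgfb1i1 and Fhl1 at 2.37 and 0.742, the myosin phosphatase inhibitor Ppp1r14a at 0.518, and the actin-bundling Synpo2 at 0.0927. The regulators stood between these extremes, with Srf at 31.3, Mrtfb at 9.58 and Mrtfa at 8.0. The non-muscle myosin heavy chain Myh10 stood lower than these regulators, at 6.78.

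**Figure D1:**
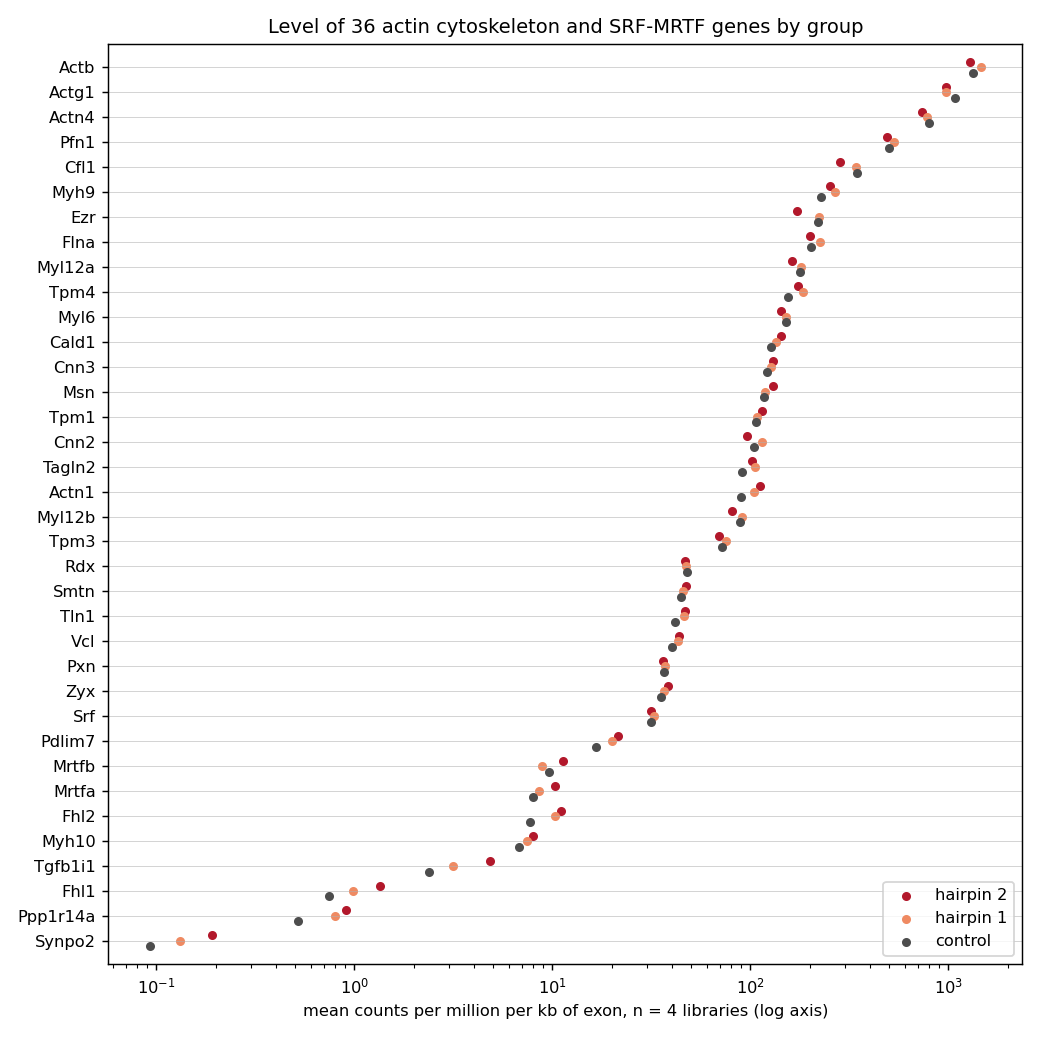
Mean level of each of the 36 genes in CPM per kilobase of exon on a log axis, with 1 point for each of the hairpin 2, hairpin 1 and control groups (n = 4 libraries each). Levels run from 1336 for Actb to 0.0927 for Synpo2 in the control, and the points of the 3 groups lie close together except for the low genes at the bottom.

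Few of the 36 genes passed the test against the control, and all that did passed with hairpin 2. With hairpin 2, Tgfb1i1 and Mrtfa rose and Ezr fell, which made 3 of 36 genes called where 5.76% of all tested genes were called (2.83% higher and 2.93% lower). With hairpin 1, edgeR called 0 of 36 genes where it called 0.728% of all genes (0.382% higher and 0.347% lower). At an unadjusted p under 0.05 there were 8 of 36, against 12.8% of all genes, and DESeq2 called 2 of 36, Myh9 and Tpm4, against 4.01% of all genes. Over both hairpins, edgeR called 0 of 36 genes where it called 1.79% of all genes (0.84% higher and 0.946% lower). At an unadjusted p under 0.05 there were 15 of 36, against 17.2% of all genes. DESeq2 called 8 of 36, against 7.74% of all genes: Actg1, Tgfb1i1, Pdlim7, Fhl2, Myh9, Tpm4, Synpo2 and Ezr. With hairpin 2 against hairpin 1, Mrtfb rose and Ezr fell, 2 of 36 genes where 3.44% of all genes were called (1.57% higher and 1.87% lower). DESeq2 called 11 of 36 genes with hairpin 2, against 12.1% of all genes, which were the 3 of edgeR with Mrtfb, Actg1, Actn1, Pdlim7, Fhl1, Myl12a, Cald1 and Synpo2. It called 7 of 36 between hairpin 2 and hairpin 1, against 9.17% of all genes, which were Mrtfb and Ezr with Actb, Tgfb1i1, Myl12a, Myl12b and Cnn2. At an unadjusted p under 0.05 there were 19 of 36 with hairpin 2, against 22.6% of all genes, and 11 of 36 between the hairpins, against 20.1%.

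The median log2 fold change of the 36 genes was 0.10 with hairpin 2, where 22 were positive, and 0.09 with hairpin 1, where 32 were positive. The 2 sets of values use the same control libraries and are not independent. Over all tested genes the median was 0.00 in each of these contrasts, and 50.8% were positive with hairpin 2 and 49.5% with hairpin 1. The 36 were chosen with earlier results of these data known, so these medians and counts are no test of the pathway. Between hairpin 2 and hairpin 1 the median of the 36 was 0.00, with 18 positive, beside 51.6% of all genes. The calls with hairpin 2 against the control depend on the model: none of the 3 was made when only the hairpin 2 and control libraries were fitted, and none without the replicate number. The number called with hairpin 2 was 8 without control replicate 2, 6 without hairpin 2 replicate 2, and 2 or 3 without any other library.

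**Figure D2:**
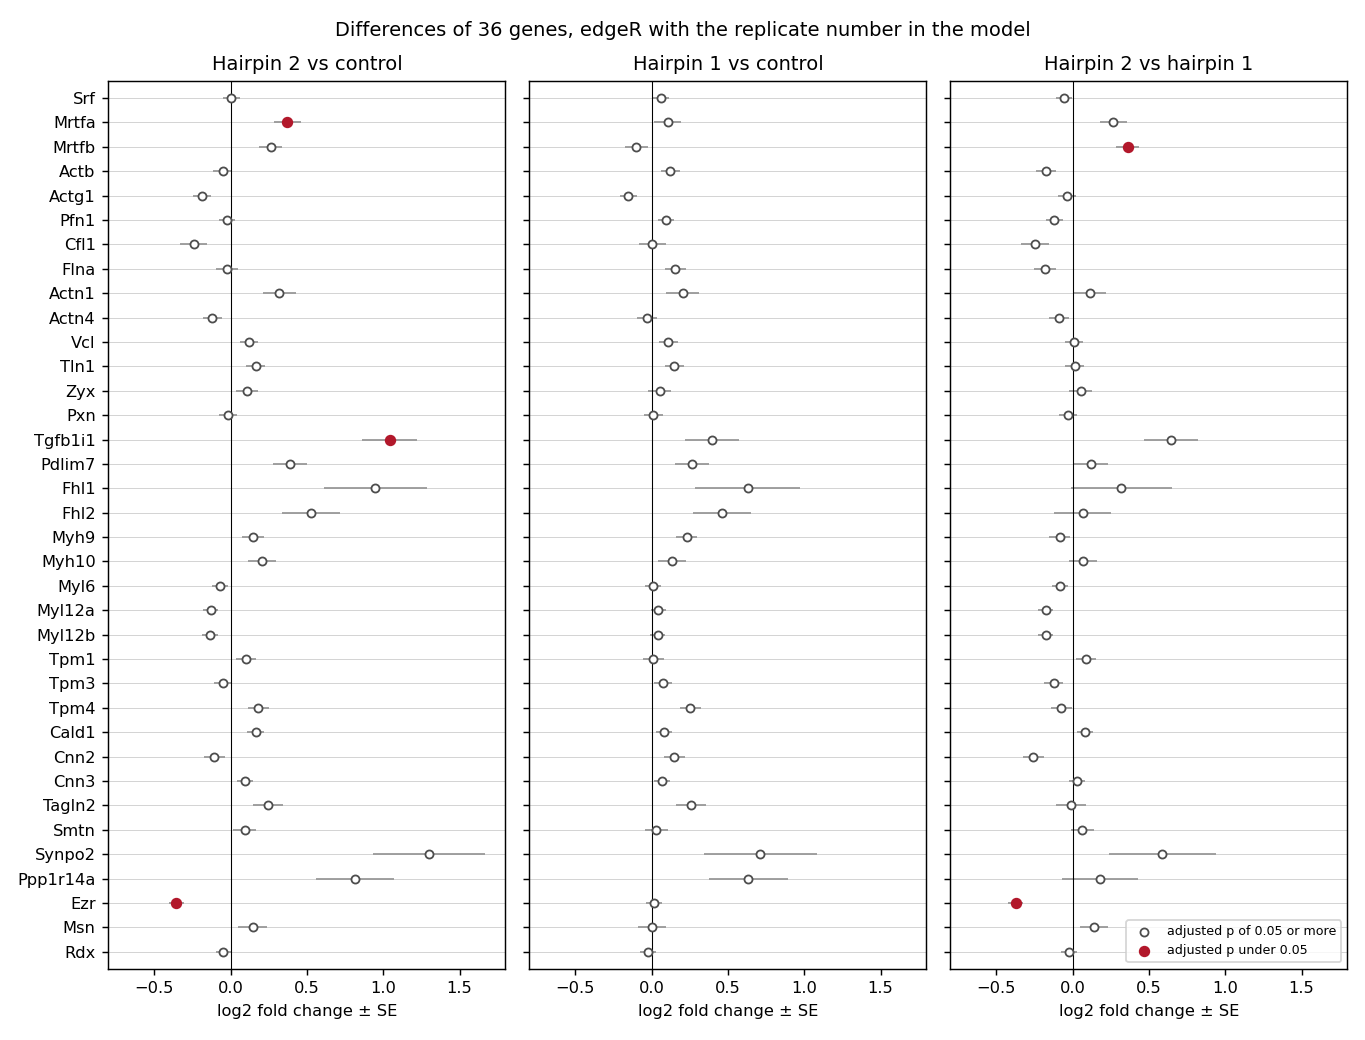
Log2 fold change ± SE of each of the 36 genes from edgeR with the replicate number in the model, for hairpin 2 against control, hairpin 1 against control and hairpin 2 against hairpin 1. Filled points have an adjusted p under 0.05: Mrtfa, Tgfb1i1 and Ezr in the left panel, none in the middle panel, and Mrtfb and Ezr in the right panel.

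Of the 3 regulators, Mrtfa rose with hairpin 2 against the control, Mrtfb rose with hairpin 2 against hairpin 1, and Srf, the DNA-binding partner of both, passed in no contrast. Srf (chromosome 17, 46548329 to 46556175, GRCm38, minus strand) stood at 80.9, 71.2, 88.8 and 87.1 CPM in replicates 1 to 4 with hairpin 2, at 83.9, 70.0, 97.7 and 90.7 CPM with hairpin 1, and at 80.0, 68.9, 84.1 and 94.5 CPM in the control. The groups overlapped almost fully, and replicate 2 was the lowest library in each. The log2 fold change of Srf was 0.01 with hairpin 2, with a 95% interval of -0.11 to 0.12, and 0.06 with hairpin 1, with an interval of -0.06 to 0.18.

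Srf is itself a known target of its own protein, and its promoter was examined with those of the other members. RefSeq promoter windows on GRCm38.p6, from 250 bases before to 50 bases after a gene's start, were at hand for 33 of the 36 genes. Actb, Pxn and Tgfb1i1 had no window, so their promoters were not searched. The CArG box was searched by its 10 base consensus, which reads alike on both strands, and no match overlapped another. It was present in 7 of these 33 genes, 21.2%, against 488 of 27025 genes, 1.81%, in the whole promoter table. The members were listed as genes of this pathway, so a share above that of all genes describes the list and tests nothing about these samples. The stretches that hold the matches are shown so that the elements of the regulator, the actin Actg1 and the target genes can be compared. Each is 30 bases long and reads 5′ to 3′ on the gene's own strand, with the CArG box in capitals.
Srf, 82 bases before the start, chr17:46556225-46556254, minus strand: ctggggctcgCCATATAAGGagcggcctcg
Srf, 62 bases before the start, chr17:46556205-46556234, minus strand: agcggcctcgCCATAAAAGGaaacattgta
Actg1, 90 bases before the start, chr11:120348566-120348595, minus strand: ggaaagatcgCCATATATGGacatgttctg
Vcl, 227 bases before the start, chr14:20929161-20929190, plus strand: cccactatgcCCTTATAAGGagcgccccgc
Fhl1, 102 bases before the outer of its 2 starts, chrX:56779571-56779600, plus strand: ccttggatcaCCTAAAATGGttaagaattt
Fhl2, 96 bases before the outer of its 2 starts, chr1:43196838-43196867, minus strand: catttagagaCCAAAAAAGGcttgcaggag
Fhl2, 31 bases before the inner start, chr1:43163973-43164002, minus strand: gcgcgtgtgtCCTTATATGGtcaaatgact
Myl6, 50 bases before the inner of its 2 starts, chr10:128493040-128493069, minus strand: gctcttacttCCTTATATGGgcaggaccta
Cnn2, 56 bases before the start, chr10:79988534-79988563, plus strand: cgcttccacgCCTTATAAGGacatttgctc

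Srf held 2 matches in 1 window, Fhl2 held 1 in each of 2 windows, Myl6 held 1 in the inner of its 2 windows and Fhl1 held 1 in the outer of its 2. None of the 7 genes with a match was called in any contrast by the edgeR fit used here. That fit called only 4 of all 36 genes, so this is no result about genes with a match. DESeq2 called Actg1 and Fhl1 with hairpin 2, Actg1 and Fhl2 over both hairpins and Cnn2 between the hairpins. Of all 36 genes it called 8, 2, 11 and 7 over both hairpins, with hairpin 1, with hairpin 2 and between the hairpins. The shares of all genes in this order were 7.74%, 4.01%, 12.1% and 9.17%. Of the 4 genes that edgeR called, Mrtfa, Mrtfb and Ezr had windows, and these held no match.

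Mrtfa (chromosome 15, 81012281 to 81190757, GRCm38, minus strand), which encodes an actin-monomer-binding coactivator of Srf, stood at 47.4, 42.5, 49.2 and 55.2 CPM in replicates 1 to 4 with hairpin 2. It stood at 38.4, 41.5, 36.8 and 45.3 CPM with hairpin 1 and at 36.1, 41.2, 29.8 and 44.2 CPM in the control. Within each replicate number the hairpin 2 library was above the control, with the smallest gap in replicate 2, but the lowest hairpin 2 library lay under the highest control library. Mrtfa rose by 0.37 on the log2 scale with hairpin 2 (SE 0.09; edgeR adjusted p = 0.0386), and with hairpin 1 its log2 fold change was 0.11 (SE 0.09; edgeR adjusted p = 0.682). The difference between the hairpins, 0.27 (SE 0.09), missed the threshold (edgeR adjusted p = 0.133). With 1 library left out, the call with hairpin 2 was kept without control replicate 2 or hairpin 2 replicate 2 and was lost without any of the other 10 libraries. The edgeR adjusted p was 0.0140 to 0.110 over these 12 fits and 0.00572 to 1.00 over all alternatives, DESeq2 included. In replicates 3 and 4 alone its log2 fold change was 0.54 (edgeR adjusted p = 0.0989), and in replicates 1 and 2 alone 0.21 (edgeR adjusted p = 0.416).

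Mrtfb (chromosome 16, 13256481 to 13417529, GRCm38, plus strand), the second coactivator of the family, stood at 97.3, 92.5, 97.9 and 119 CPM in replicates 1 to 4 with hairpin 2. It stood at 69.6, 78.3, 72.9 and 97.8 CPM with hairpin 1 and at 70.6, 86.4, 71.5 and 116 CPM in the control. Hairpin 2 lay above hairpin 1 in every replicate number and also above the control in every replicate number, although replicate 4 of the control was close to replicate 4 of hairpin 2. Mrtfb rose by 0.36 on the log2 scale with hairpin 2 against hairpin 1 (SE 0.07; edgeR adjusted p = 0.0294). Against the control its log2 fold change was 0.26 with hairpin 2 (SE 0.07; edgeR adjusted p = 0.0703) and -0.10 with hairpin 1 (SE 0.07; edgeR adjusted p = 0.644). The difference between the hairpins was 0.36 both in replicates 3 and 4 alone and in replicates 1 and 2 alone, with edgeR adjusted p of 0.334 and 0.214. The call was lost without any 1 library of hairpin 1 and without hairpin 2 replicate 1 or 3. The edgeR adjusted p was 0.0243 to 0.111 with 1 library left out and 0.00140 to 1.00 over all alternatives, DESeq2 included.

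**Figure D3:**
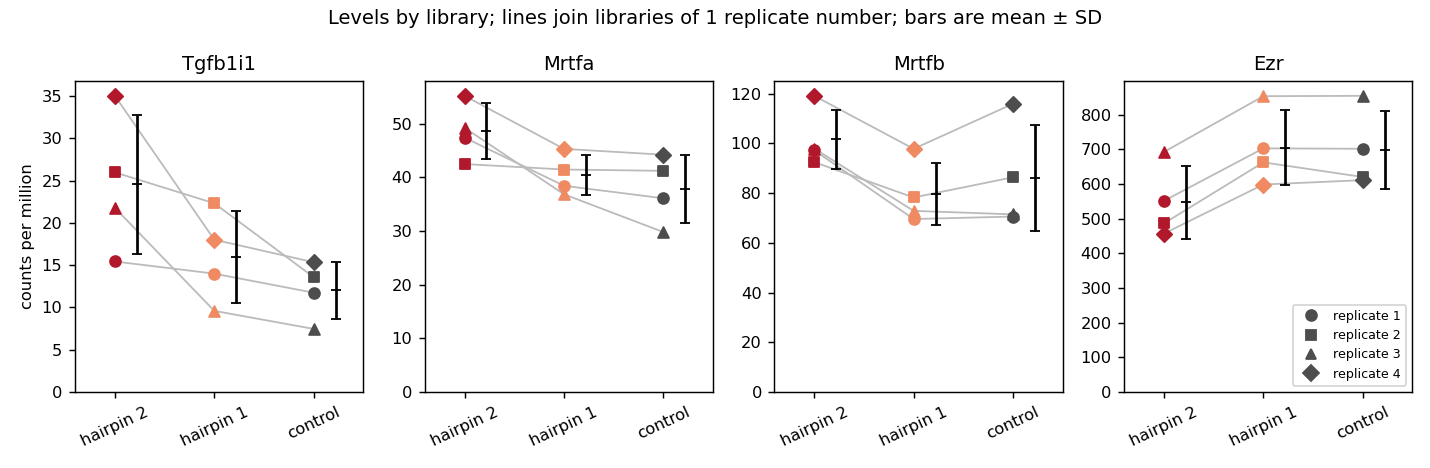
CPM of Tgfb1i1, Mrtfa, Mrtfb and Ezr in each of the 12 libraries, with grey lines joining libraries of the same replicate number and bars giving the mean ± SD of each group (n = 4). In Ezr each hairpin 2 library lies under both other libraries of its number, and in Tgfb1i1, Mrtfa and Mrtfb each hairpin 2 library lies above them.

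The cytoplasmic actins, which form the filaments of non-muscle cells, did not pass edgeR's test in any contrast. Actg1 had an unadjusted p under 0.05 with each hairpin, and DESeq2 called it with hairpin 2 and over both hairpins. Actb had an unadjusted p of 0.0209 by edgeR between hairpin 2 and hairpin 1, at a log2 difference of -0.18 (SE 0.06; edgeR adjusted p = 0.167), and DESeq2 called it there. Actb (chromosome 5, 142903115 to 142906754, GRCm38, minus strand) stood at 2980.2, 2338, 2364 and 2206 CPM in replicates 1 to 4 with hairpin 2, at 3311, 2591, 3018 and 2285 CPM with hairpin 1, and at 2979.6, 2446, 2673 and 2161 CPM in the control. The highest of the 3 libraries was that of hairpin 1 in every replicate number. The log2 fold change of Actb was -0.05 with hairpin 2 (SE 0.06; edgeR adjusted p = 0.680) and 0.12 with hairpin 1 (SE 0.06; edgeR adjusted p = 0.473).

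Actg1 (chromosome 11, 120345690 to 120348542, GRCm38, minus strand) stood at 3683, 2799, 600.1 and 514 CPM in replicates 1 to 4 with hairpin 2, at 3626, 2757, 671 and 525 CPM with hairpin 1, and at 3934, 3138, 741 and 585 CPM in the control. The control was the highest of the 3 libraries in every replicate number, while the level itself was set apart by replicate number. The log2 fold change of Actg1 was -0.19 with hairpin 2 (SE 0.06; edgeR adjusted p = 0.0942) and -0.15 with hairpin 1 (SE 0.06; edgeR adjusted p = 0.314). Actg1 was lower than the control in 4 of 4 pairs with each hairpin, as were 12.8% of all genes with hairpin 2 and 12.6% with hairpin 1. Its counts are uncertain, since 45.6% of the 50-base words of its coding transcripts also occur in transcripts of 22 other genes, 41.1% in Gm12715.

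Neither Pfn1 nor Cfl1, of the monomer-binding and severing proteins, passed. Pfn1, the profilin that feeds monomers to growing filament ends, had log2 fold changes of -0.03 with hairpin 2 and 0.09 with hairpin 1. Cfl1, the cofilin that severs filaments, averaged 709.7 ± 92.1 CPM with hairpin 2, 853 ± 177 CPM with hairpin 1 and 861 ± 245 CPM in the control (SD, n = 4 each). Its log2 fold change with hairpin 2 was -0.24 (SE 0.09; edgeR adjusted p = 0.144), and the pair of replicate 3 gave -0.61. Among the crosslinkers, the alpha-actinin Actn1 was at 0.32 with hairpin 2 (SE 0.11; edgeR adjusted p = 0.117) and 0.20 with hairpin 1 (SE 0.11; edgeR adjusted p = 0.479), and DESeq2 called it with hairpin 2. Its paralog Actn4 was at -0.12 with hairpin 2 and -0.03 with hairpin 1. The filamin Flna, which links filaments into nets, was at -0.02 with hairpin 2 and 0.16 with hairpin 1.

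Among the 8 focal adhesion and LIM-domain genes, Tgfb1i1 rose with hairpin 2 and the other 7 did not pass edgeR's test in any contrast. Tgfb1i1 (chromosome 7, 128246812 to 128255699, GRCm38, plus strand) encodes Hic-5, a paxillin-related adaptor of focal adhesions that is also found in the nucleus. It stood at 15.4, 26.0, 21.8 and 35.0 CPM in replicates 1 to 4 with hairpin 2, at 14.0, 22.3, 9.60 and 18.0 CPM with hairpin 1, and at 11.7, 13.6, 7.46 and 15.3 CPM in the control. The lowest hairpin 2 library lay just above the highest control library, and in every replicate number the order was hairpin 2, hairpin 1, control from high to low. Tgfb1i1 rose by 1.04 on the log2 scale with hairpin 2, or 106% (SE 0.18; edgeR adjusted p = 0.0114). With hairpin 1 its log2 fold change was 0.39 (SE 0.18; edgeR adjusted p = 0.394), over both hairpins 0.72 (SE 0.16; edgeR adjusted p = 0.0530) and between hairpin 2 and hairpin 1 0.65 (SE 0.18; edgeR adjusted p = 0.0773).

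The increase of Tgfb1i1 with hairpin 2 passed whichever library was left out, with an edgeR adjusted p of 0.00947 to 0.0488 over 12 fits. With the libraries of the 2 groups alone it did not pass (edgeR adjusted p = 0.0630), and over all alternatives, DESeq2 included, the adjusted p was 1.76e-06 to 1.00. In replicates 3 and 4 alone it was 1.39 (edgeR adjusted p = 0.0198), and in replicates 1 and 2 alone 0.66 (edgeR adjusted p = 0.141). A separate fit of the hairpin effect against the replicate numbers put the difference at 0.70 (SE 0.22), which missed the threshold (edgeR adjusted p = 0.463). In this contrast 0 of 17025 genes passed that test, while 1278 were under 0.05 before adjustment. Tgfb1i1 is also expressed in fibroblasts. With hairpin 2, 10 of 11 fibroblast markers had a positive log2 fold change, beside 50.8% of all genes, and Pi16 was at -0.37. Of the 11, 3 rose, beside 2.83% of all genes, and none was at 0 throughout. With hairpin 1, 8 of 11 were positive, beside 49.5% of all genes, and Lum, Col3a1 and Dpt were at -0.46, -0.32 and -0.54. The summed level of the 11 exceeded the control of the same number in 4 of 4 pairs with hairpin 2 and in 3 of 4 with hairpin 1. The sum leaned on Postn, which made up 29.7% to 78.8% of it; without Postn it was above the control in 3 of 4 pairs with hairpin 2. In replicate 2, 7 of 11 markers were higher with hairpin 2, while Col1a1 stood at 293 CPM against 559 CPM in the control. Of 8 basal and myoepithelial markers, 7 were positive with hairpin 2 and 3 rose (Trp63, Acta2 and Myh11), while Oxtr was at -0.36. Of 7 tested pericyte markers, 5 were positive and 2 rose (Cspg4 and Pdgfrb), while Notch3 and Kcnj8 were at -0.14 and -0.08. The part of these cell types in the Tgfb1i1 result was not tested. In such bulk libraries a difference in the number of cells of a type cannot be told apart from one in RNA per cell.

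The other adhesion genes gave smaller or less even differences. Pdlim7, a PDZ and LIM protein that binds tropomyosin, was at 0.39 with hairpin 2 (SE 0.11; edgeR adjusted p = 0.0709) and 0.27 with hairpin 1 (SE 0.11; edgeR adjusted p = 0.349). Fhl2, a LIM protein that binds integrins and Srf, stood at 11.7 to 36.2 CPM with hairpin 2, 11.7 to 25.5 CPM with hairpin 1 and 5.93 to 18.8 CPM in the control. Its log2 fold changes were 0.53 (SE 0.19; edgeR adjusted p = 0.132) with hairpin 2 and 0.46 (SE 0.19; edgeR adjusted p = 0.344) with hairpin 1. The control library of replicate 3 was far under the other controls, and without control replicate 2 the gene was called with hairpin 2. In replicates 3 and 4 alone Fhl2 was at 1.06 with hairpin 2 (edgeR adjusted p = 0.0331), and in replicates 1 and 2 alone at 0.01 (edgeR adjusted p = 0.990). The separate fit of the hairpin effect against the replicate numbers put the difference at 1.03 (SE 0.21), which missed the threshold (edgeR adjusted p = 0.276). Fhl1, a related LIM protein of muscle, stood at 2.40 to 7.65 CPM with hairpin 2, 2.17 to 3.82 CPM with hairpin 1 and at most 3.93 CPM in the control. Its log2 fold change with hairpin 2 was 0.95 (SE 0.34; edgeR adjusted p = 0.131), and DESeq2 called Fhl1 and Pdlim7 with hairpin 2. The talin Tln1, which links integrins to filaments, was at 0.16 with hairpin 2 and 0.15 with hairpin 1, and vinculin Vcl, which reinforces that link, at 0.12 and 0.11 in the same order. Zyxin Zyx, found on strained filaments, was at 0.11 and 0.05, and the scaffold paxillin Pxn at -0.02 and 0.01. For Pxn the 95% interval was -0.15 to 0.12 with hairpin 2 and -0.12 to 0.15 with hairpin 1, on the log2 scale. Of the exon bases of Vcl, 39.7% lie opposite exons of Ap3m1, so that reads of these genes could mix if strand was not used in counting.

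None of the 5 non-muscle myosin II genes passed edgeR's test. At an unadjusted p under 0.05 by edgeR there were 3 with hairpin 2 and 1 with hairpin 1, beside 22.6% and 12.8% of all genes. DESeq2 called Myl12a with hairpin 2 and Myh9 with hairpin 1, where it called 12.1% and 4.01% of all genes. Myh9 and Myh10 encode heavy chains of the motor, Myl6 its essential light chain, and Myl12a and Myl12b its regulatory light chains. Myh9 was at 0.15 with hairpin 2 (SE 0.07; edgeR adjusted p = 0.240) and 0.23 with hairpin 1 (SE 0.07; edgeR adjusted p = 0.182). Myh10 was at 0.21 with hairpin 2 and 0.14 with hairpin 1, and Myl6 at -0.07 and 0.01. The regulatory light chains gave values close to each other. Myl12a was at -0.13 with hairpin 2 (SE 0.05; edgeR adjusted p = 0.152) and 0.05 with hairpin 1 (SE 0.05; edgeR adjusted p = 0.761). Myl12b was at -0.13 (SE 0.05; edgeR adjusted p = 0.145) and 0.04 (SE 0.05; edgeR adjusted p = 0.801). Each was lower with hairpin 2 than with hairpin 1 in 4 of 4 pairs, as were 14.9% of all genes. The log2 differences were -0.17 for Myl12a and -0.18 for Myl12b (edgeR adjusted p = 0.0832 and 0.0891), and DESeq2 called both in this contrast.

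The tropomyosins, which coat filaments and set which proteins may bind them, did not pass edgeR's test. Tpm4 alone had an unadjusted p under 0.05, with each hairpin, beside 22.6% of all genes with hairpin 2 and 12.8% with hairpin 1. DESeq2 called Tpm4 with hairpin 1, where it called 4.01% of all genes. Tpm4 averaged 369 ± 48.8 CPM with hairpin 2, 392 ± 74.7 CPM with hairpin 1 and 328 ± 58.8 CPM in the control (SD, n = 4 each). Its log2 fold change was 0.18 (SE 0.07; edgeR adjusted p = 0.151) with hairpin 2 and 0.25 (SE 0.07; edgeR adjusted p = 0.143) with hairpin 1. With the libraries of hairpin 1 and the control alone Tpm4 was called. Tpm1 was at 0.10 and 0.01 and Tpm3 at -0.05 and 0.07 with hairpin 2 and hairpin 1, but 40.0% of the words of Tpm3 also occur in Tpm3-rs7.

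The 7 calponin family and contractile genes were positive in nearly all cases and none was called by edgeR. At an unadjusted p under 0.05 by edgeR there were 4 with hairpin 2 and 2 with hairpin 1, beside 22.6% and 12.8% of all genes. DESeq2 called Synpo2 and Cald1 with hairpin 2, where it called 12.1% of all genes. All 7 were positive with hairpin 1, beside 49.5% of all genes, and 6 with hairpin 2, beside 50.8%. With hairpin 2 the calponin Cnn2 was at -0.11 (SE 0.07; edgeR adjusted p = 0.404). Cnn2 was lower with hairpin 2 than with hairpin 1 in 4 of 4 pairs, as were 14.9% of all genes, at -0.26 (SE 0.07; edgeR adjusted p = 0.0757). DESeq2 called Cnn2 between the hairpins, and so did edgeR on the libraries of these 2 groups alone and without control replicate 3. Synpo2, which encodes the actin-bundling myopodin, stood at 1.33, 1.98, 1.68 and 4.86 CPM in replicates 1 to 4 with hairpin 2, at 1.07, 0.888, 1.2 and 3.61 CPM with hairpin 1, and at 0.864, 0.731, 0.215 and 2.99 CPM in the control. Replicate 4 was the highest library in every group, and hairpin 2 exceeded hairpin 1 and hairpin 1 exceeded the control in every replicate number. The log2 fold change of Synpo2, the largest of the 36 with hairpin 2, was 1.30 (SE 0.37; edgeR adjusted p = 0.0693), and with hairpin 1 it was 0.71 (SE 0.37; edgeR adjusted p = 0.473).

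Ppp1r14a, the CPI-17 inhibitor of myosin phosphatase, stood at 0.910 to 1.52 CPM with hairpin 2, 0.774 to 1.25 CPM with hairpin 1 and 0.432 to 1.04 CPM in the control. Its log2 fold changes were 0.81 (SE 0.25; edgeR adjusted p = 0.0948) with hairpin 2 and 0.63 (SE 0.26; edgeR adjusted p = 0.339) with hairpin 1, higher in 4 of 4 pairs each, as were 12.6% and 11.8% of all genes. Both Synpo2 and Ppp1r14a were near the bottom of the levels, so that few counts lie behind them. Caldesmon Cald1, which restrains myosin on filaments, was at 0.16 with hairpin 2 and 0.08 with hairpin 1 and higher in 4 of 4 pairs each. The calponin Cnn3 was at 0.10 and 0.07. Tagln2, a transgelin of non-muscle cells, was at 0.25 (SE 0.10; edgeR adjusted p = 0.171) and 0.26 (SE 0.10; edgeR adjusted p = 0.309), and smoothelin Smtn at 0.09 and 0.03.

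**Figure D4:**
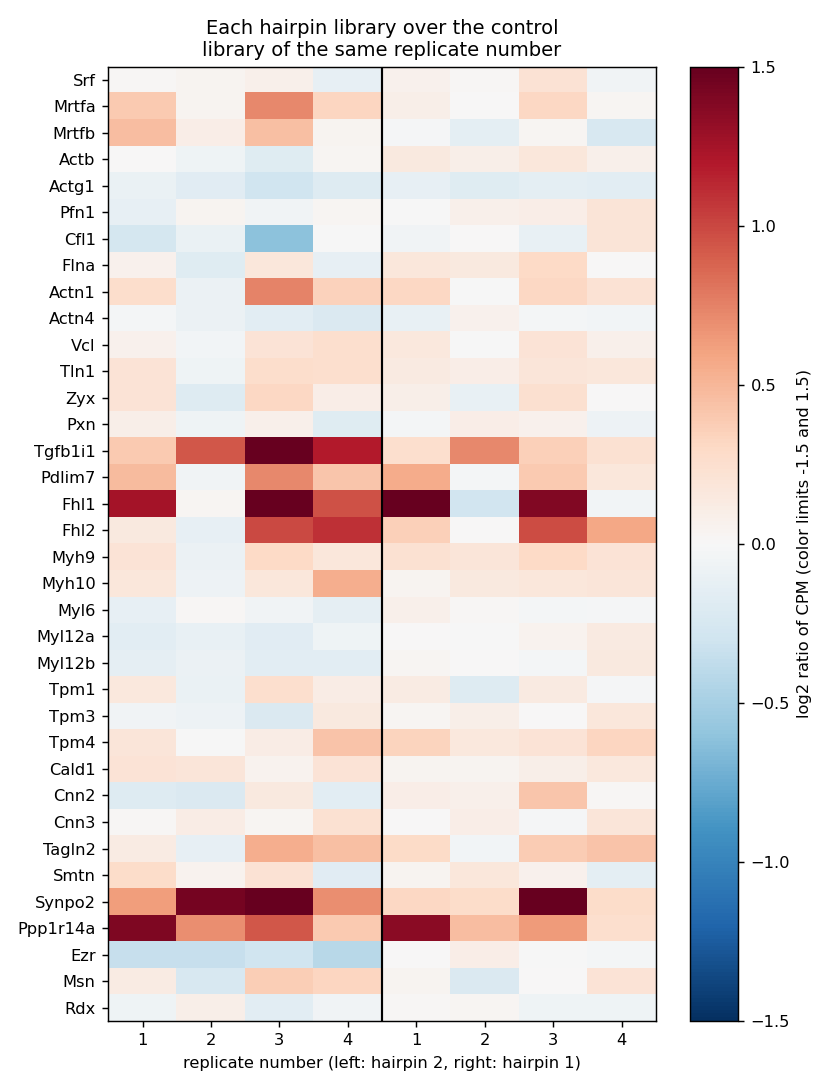
Log2 ratio of CPM of each hairpin library over the control library of the same replicate number, with the 36 genes in rows, hairpin 2 in the left 4 columns and hairpin 1 in the right 4, red for higher and blue for lower, cut at 1.5 on either side. Tgfb1i1, Synpo2 and Ppp1r14a are red in all 8 columns, Actg1 is blue in all 8, and Ezr is blue in the 4 hairpin 2 columns and pale in the hairpin 1 columns.

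Of the ezrin-radixin-moesin genes, whose products tether filaments to the plasma membrane, Ezr fell with hairpin 2 and neither Rdx nor Msn passed. Ezr (chromosome 17, 6738041 to 6782784, GRCm38, minus strand), which encodes ezrin of the apical epithelial surface, stood at 551, 486, 692 and 457 CPM in replicates 1 to 4 with hairpin 2. It stood at 703, 662, 853 and 599 CPM with hairpin 1 and at 702, 620.3, 854 and 611 CPM in the control. Hairpin 2 was the lowest library in every replicate number and hairpin 1 lay beside the control. The ranges of the groups overlapped, and replicate 3 was the highest library in each. Ezr fell by 0.36 on the log2 scale with hairpin 2 against the control (SE 0.05; edgeR adjusted p = 0.00559) and by 0.37 against hairpin 1 (SE 0.05; edgeR adjusted p = 0.00508). With hairpin 1 against the control its log2 fold change was 0.02, with a 95% interval of -0.10 to 0.13 (edgeR adjusted p = 0.935).

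The decrease of Ezr passed whichever library was left out, with an edgeR adjusted p of up to 0.0262 against the control and up to 0.0309 against hairpin 1. With the libraries of hairpin 2 and the control alone it did not pass (edgeR adjusted p = 0.0861). Over all alternatives, DESeq2 included, its adjusted p against the control was 3.18e-12 to 1.00. The 4 pairs gave log2 ratios from -0.42 to -0.30 against the control and from -0.45 to -0.30 against hairpin 1, the narrowest spread among the called genes. In replicates 3 and 4 alone it was -0.34 and in replicates 1 and 2 alone -0.35 against the control, neither past the threshold (edgeR adjusted p = 0.213 and 0.105). The summed luminal markers were higher than in the control of the same number in 2 of 4 pairs with hairpin 2 and 1 of 4 with hairpin 1, and without Erbb2 in 1 of 4 with each. Of the 7 luminal markers 1 passed with hairpin 2, Epcam, an adhesion protein of epithelial cells. Epcam fell by 0.34 (SE 0.06; edgeR adjusted p = 0.0151) and was lower in 4 of 4 pairs. Krt19 was at 1.02, Elf3 at 0.09, Cdh1 at 0.02, Krt8 and Erbb2 at -0.04 and Krt18 at -0.09 with hairpin 2. With hairpin 1, where Ezr lay beside the control, Epcam was at -0.16 and lower in 4 of 4 pairs. The part of epithelial cell content in the Ezr result was not tested. Msn, moesin, stood at 421 to 592 CPM with hairpin 2, 337 to 547 CPM with hairpin 1 and 335 to 499.8 CPM in the control, a log2 fold change of 0.14 with hairpin 2 (SE 0.09; edgeR adjusted p = 0.397) and 0.01 with hairpin 1. Rdx, radixin, was at -0.05 and -0.02.

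The replicate number separated some of these genes more than any hairpin did. Between replicates 3 and 4 and replicates 1 and 2, taken over all groups, the 6 libraries of each side did not overlap for 7 of 36 genes, 2 higher and 5 lower, where 18.2% of all tested genes did not overlap (3.88% higher and 14.3% lower). The labels do not say what the numbers stand for, and depth differed in the same way, so these values are a description. Actg1 stood at 514 to 741 CPM in replicates 3 and 4 and at 2757 to 3934 CPM in replicates 1 and 2, a log2 difference of -2.45. Actb stood at 2161 to 3018 CPM in replicates 3 and 4 and at 2338 to 3311 CPM in replicates 1 and 2, and these overlapped. The ratio of Actg1 to Actb counts was 0.222 to 0.277 in replicates 3 and 4 and 1.06 to 1.32 in replicates 1 and 2, so that their order turned round. Their summed level was 2719.9 to 3689 CPM in replicates 3 and 4 and 5137 to 6936 CPM in replicates 1 and 2.

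Myl12a (chromosome 17, 70993656 to 71002878, GRCm38, minus strand) stood at 189 and 154 CPM in replicates 3 and 4 with hairpin 2, 221 and 176 CPM with hairpin 1 and 213 and 161 CPM in the control. In replicates 1 and 2 it stood at 665 and 570.0 CPM with hairpin 2, 746 and 613 CPM with hairpin 1 and 743 and 617 CPM in the control. Its neighbour Myl12b (chromosome 17, 70973133 to 70990890, GRCm38, minus strand) stood at 135 and 102 CPM in replicates 3 and 4 with hairpin 2, 148 and 127 CPM with hairpin 1 and 150.0 and 115 CPM in the control. In replicates 1 and 2 Myl12b stood at 272 and 240.0 CPM with hairpin 2, 305 and 256 CPM with hairpin 1 and 298 and 255 CPM in the control. All 6 libraries of replicates 3 and 4 lay under all 6 of replicates 1 and 2 for both genes, with log2 differences of -1.84 for Myl12a and -1.07 for Myl12b. The ratio of Myl12a to Myl12b counts was 1.38 to 1.5 in replicates 3 and 4 and 2.37 to 2.49 in replicates 1 and 2. Of the words of Myl12a 19.1% also occur in other genes, nearly all in transcripts named Myl12b, which overlap 19.0% of the exon bases of Myl12a, so the counts of these genes are uncertain.

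Tagln2 was lower in replicates 3 and 4, at 78.9 to 150.4 CPM against 199 to 245 CPM in replicates 1 and 2, and Tpm1 at 418 to 496 CPM against 535 to 634 CPM. The 2 higher genes were Srf, at 84.1 to 97.7 CPM in replicates 3 and 4 against 68.9 to 83.9 CPM in replicates 1 and 2, and Rdx, at 219 to 254 CPM against 196 to 216 CPM. The median log2 difference of the 36 genes was -0.02, and that of all tested genes 0.04.

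**Figure D5:**
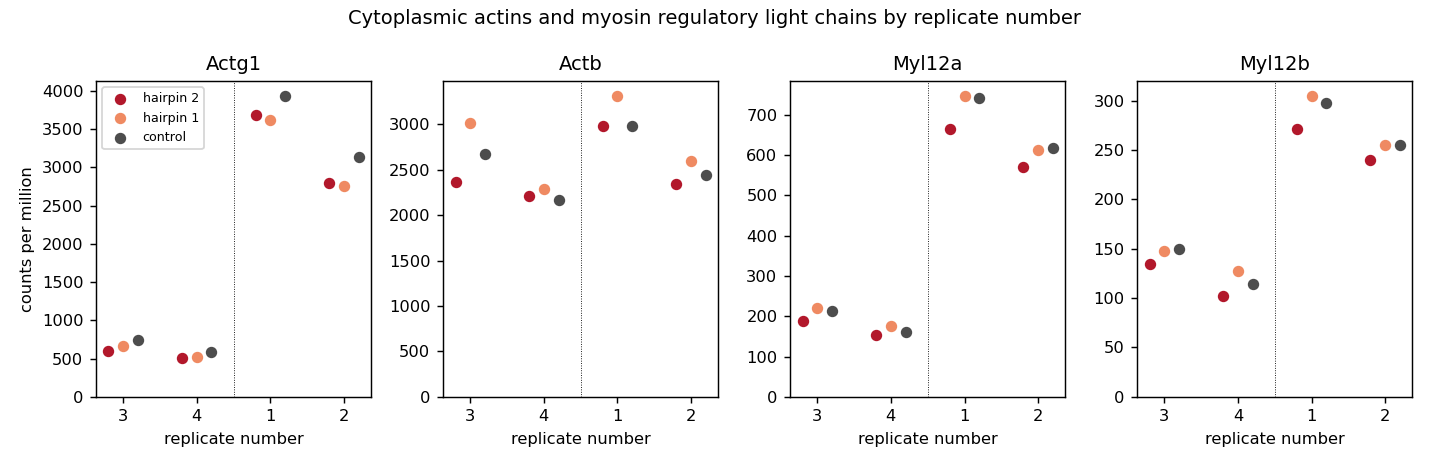
CPM of Actg1, Actb, Myl12a and Myl12b in each of the 12 libraries, ordered by replicate number with replicates 3 and 4 on the left of the dotted line and 1 and 2 on the right, and colored by group. Actg1, Myl12a and Myl12b are low on the left of the line in all groups, at 514 to 741, 154 to 221 and 102 to 150.0 CPM, while Actb is at similar levels on both sides.

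A further 115 genes of the pathway, of which 114 were tested, show what surrounds the 36. Of the 114, 16 rose and 4 fell with hairpin 2, 3 rose and 1 fell with hairpin 1, and 9 rose and 1 fell over both hairpins. With hairpin 2 against hairpin 1, 1 rose and 4 fell. Of the 114, 14.0% rose and 3.51% fell with hairpin 2, beside 2.83% and 2.93% of all genes, and 2.63% rose and 0.877% fell with hairpin 1, beside 0.382% and 0.347%. Over both hairpins 7.89% rose and 0.877% fell, beside 0.84% and 0.946%, and between the hairpins 0.877% rose and 3.51% fell, beside 1.57% and 1.87%. The shares that fell with hairpin 2 and over both hairpins were near those of all genes. Of 21 other targets of Srf, 9 rose with hairpin 2, at a median log2 fold change of 0.49, and 1 rose with hairpin 1, at a median of 0.25. The median of all genes was 0.00 in both. These lists were chosen with earlier results of these data known. A share or median above that of all genes may owe to that choice and is no test of the pathway. Those of smallest p with hairpin 2 were the LIM protein Csrp1, which rose by 0.41 on the log2 scale, the calponin Cnn1 by 2.49, the smooth muscle myosin Myh11 by 2.03 and the transgelin Tagln by 1.47 (edgeR adjusted p = 0.00265, 0.00394, 0.0083 and 0.00863 in this order). The smooth muscle genes of this list are also used by myoepithelial cells and pericytes, and 3 of 8 basal and myoepithelial markers and 2 of 7 tested pericyte markers rose with hairpin 2. The basal count partly restates the calls above, since Acta2 and Myh11 are in both lists. The 1 basal marker outside the pathway lists that rose was Trp63, and both pericyte markers that rose, Cspg4 and Pdgfrb, lie outside them. Summed over the list, the basal and myoepithelial markers stood at 1967 to 3444 CPM with hairpin 2, 1210 to 3411 CPM with hairpin 1 and 911 to 3685 CPM in the control, and the pericyte markers at 245 to 517 CPM with hairpin 2, 219.8 to 438 CPM with hairpin 1 and 206 to 424 CPM in the control. Both sums were above the control of the same number in 3 of 4 pairs with hairpin 2. With hairpin 1 the basal sum was above it in 3 of 4 pairs and the pericyte sum in 4 of 4. Krt14 made up 33.4% to 48.3% of the basal sum and Notch3 27.0% to 73.8% of the pericyte sum. Without these genes both sums were above the control in 4 of 4 pairs with each hairpin. The part of myoepithelial cells and pericytes in the calls was not tested.

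The other pathway lists gave calls in both directions. Among 21 crosslinkers and adhesion plaque genes, the muscle-type filamin Flnc rose by 1.2 (SE 0.14; edgeR adjusted p = 0.00238), the tensin Tns1 by 1.16 and the adhesion protein Lasp1 by 0.30 with hairpin 2, all on the log2 scale, and the kindlin Fermt1 fell by 0.42 against hairpin 1. Among 20 genes of the Arp2/3 complex and of nucleation, the subunit Arpc5 fell by 0.24 with hairpin 2 (SE 0.05; edgeR adjusted p = 0.0179) and by 0.29 with hairpin 1 (SE 0.05; edgeR adjusted p = 0.0241). The Arp2/3 activators Wasl and Wasf2 rose with hairpin 2 by 0.27 each, and the subunit Actr2 rose against hairpin 1 by 0.26. Among 21 genes of filament turnover and capping, the cofilin relative Dstn rose by 0.35 and the coactosin Cotl1 by 0.34 with hairpin 1, and both fell with hairpin 2 against hairpin 1, by 0.39 and 0.33. The monomer-binding twinfilin Twf2 fell by 0.42 with hairpin 2 against the control and by 0.39 against hairpin 1.

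Among 8 tested partners of Srf and regulators of the coactivators, Mical2, an enzyme that oxidizes nuclear actin and so frees the coactivators, rose by 0.61 with hairpin 2 (SE 0.10; edgeR adjusted p = 0.0098), and Phactr1, an actin-monomer-binding protein that competes with them, fell by 0.64 (SE 0.14; edgeR adjusted p = 0.0261). Neither passed with hairpin 1. Mical2 varied widely between replicate numbers in every group, with an SD over 4 libraries of 23.4 CPM with hairpin 2, 17.7 CPM with hairpin 1 and 15.9 CPM in the control.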

How the data were processed

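The deposited table gives 1 column of raw read counts for each library, with NCBI Gene numbers and symbols, and the authors' counts were used as they stand. The build was mm10 and the tools included DESeq2 1.34.0, Trimmomatic 0.39 and FastQC 0.74, per the submitters' processing notes, with no role stated. The aligner, gene annotation and strand setting: not given in the sources used here. RNA was selected with oligo-dT beads, per the labels' protocols.

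The 36 members and all lists were chosen with earlier results of these data known. Genes were filtered with filterByExpr, which kept 17025 and left out 8836; each library retained 99.97% or more of its counts. Scaling used TMM factors. Differences were tested on all 12 libraries with edgeR 4.0.16 (quasi-likelihood test, group plus replicate number) in R 4.3.3, with Benjamini-Hochberg adjustment over all tested genes and a threshold of 0.05. The script was tested on simulated data. Alternatives were the fit without the replicate number, DESeq2 1.42.0, other scaling, no filter, fewer groups or replicate numbers, and each library left out. A fit of the hairpin effect against the replicate numbers 3 and 4 was added after seeing the data. The named genes are the 3 regulators, both actins, Myl12a, Myl12b, each called member, the largest change in each role, and up to 4 called genes of smallest p in each further list. The genes of 1 further list are not reported here by name.

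Deviations from the group means correlated at 0.855 to 0.916 between same-numbered libraries of different groups and at -0.807 to 0.727 between differently numbered ones. Each of the 12 libraries lay closest to its own number. The titles' numbers and these correlations are the source of the pairing. Whether replicates were separate animals or cultures is not labelled, and p-values then measure spread between these samples alone, which may be technical. Within groups the chi-square of 2 libraries' counts per degree of freedom was 51.1 to 574, so no library repeated another.

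Levels per kilobase divide CPM by the exon length of the coding transcripts in GENCODE M21 (GRCm38, also called mm10), which overstates the length of genes with many isoforms. Shared sequence was counted in words of 50 bases. Promoter windows are RefSeq's, on GRCm38.p6.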

Additional observations from a re-analysis of the deposited data

Results flagged for a closer look

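Among 108 groups of 4 libraries (36 genes in 3 groups), 8 held a library whose gap to the nearest other took up more of the group's range than Dixon's critical value. Chance alone gives this in about 5% of groups. In the control, replicate 3 was the low library for 4 genes: Msn at 335 CPM, Actn1 at 272 CPM, Vcl at 174 CPM and Fhl2 at 5.93 CPM. The calponin Cnn2 was high in replicate 1 with hairpin 2, at 324 CPM, and with hairpin 1, at 398 CPM. Fhl1 was high in replicate 4 with hairpin 2, at 7.65 CPM, and Synpo2 in replicate 4 with hairpin 1, at 3.61 CPM.

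The effect of the hairpins, which share their target, differed for 2 of the 36 genes by the test of hairpin 2 against hairpin 1: the log2 difference was 0.36 for Mrtfb (edgeR adjusted p = 0.0294) and -0.37 for Ezr (edgeR adjusted p = 0.00508), each in the same direction in 4 of 4 pairs. Of all genes 3.44% were called by this test, so 2 of 36 is near that share. DESeq2 called 7 of the 36 in this contrast, and the Mrtfb call was lost in 6 of 12 fits that left out 1 library. Cldn7 itself was at -0.23 between the hairpins (edgeR adjusted p = 0.149).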

How the results depend on the processing

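Members called were 0 over both hairpins, 0 with hairpin 1, 3 with hairpin 2 and 2 between hairpins, and all genes called were 304, 124, 981 and 585. Without the replicate block edgeR called 0 members with hairpin 2, 0 between hairpins and 1 gene in each contrast, with a biological coefficient of variation of 0.648 against 0.141 with the block. DESeq2 called 8, 2, 11 and 7 members and 1150, 596, 1851 and 1405 genes. Without the filter 1 member was called over both hairpins and 5 with hairpin 2. With the 2 groups alone 1 member was called with hairpin 1 and 0 with hairpin 2, and 390 and 97 genes; with both hairpins as 1 group 48 genes. In replicates 3 and 4 alone 2 members were called with hairpin 2 (Tgfb1i1 and Fhl2), 0 between hairpins, and 5, 1, 327 and 42 genes. In replicates 1 and 2 alone 0 members were called with hairpin 2, 0 between hairpins and 25, 9, 82 and 84 genes. There the members' median between hairpins was -0.059. Leaving out 1 library gave 0 to 2, 0 to 0, 2 to 8 and 1 to 3 members, 39 to 554, 2 to 344, 342 to 1076 and 165 to 672 genes, and members' medians of 0.04 to 0.12, 0.08 to 0.12, 0.07 to 0.17 and -0.04 to 0.04. The causes were not tested. The Ezr and Tgfb1i1 calls were kept without any 1 library, and those of Mrtfa and Mrtfb were not. Low counts limit Synpo2, Ppp1r14a and Fhl1.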
